A study of Gossypium hirsutum with 12 samples.

Results

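The chalcone synthase genes of upland cotton (Gossypium hirsutum) were followed from 0 to 12 d post-anthesis (DPA) in developing fiber. They were 5 of the 37500 genes in the deposited table. These IDs are gene models of Gossypium raimondii, another cotton species, to whose genome the reads were aligned. A value can therefore pool reads of several upland cotton genes, and how well the reads of each aligned was not tested. The members were chosen by gene ID: the IDs are those that the study's supplementary gene tables pair with mRNA records named chalcone synthase. CHS2 was Gorai.005G035100, CHS3 was Gorai.006G000200, CHS4 was Gorai.009G250900 and CHS6 was Gorai.009G339300. Gorai.011G161300 was paired with a record named chalcone synthase 1, and it is called the CHS1 match here because that record is not the CHS1 record for which the study designed primers. The supplementary tables at hand are parts of lists of genes that differed between the stages, and they give a protein name for 463 genes only. Other chalcone synthase genes could therefore be missing, whether or not they differed, and the family sum and shares below cover the members alone. CHS1, CHS5 and CHS7 had no gene ID in them and were not analysed as genes of their own. Whether their reads were counted with a member was not tested.

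The 12 DPA group held 6 libraries and the 0 DPA group held 6 libraries, 1 per line and stage. BCF, GCF and WCF, the 3 wild-type lines, have brown, green and white fibers. The 3 transgenic lines (5#, 6# and 24#), labelled brown, green and white, carried an RNAi hairpin against the chalcone isomerase gene GhCHI-1 under the CaMV35S promoter, which is active in most plant tissues, and all descended from a single transformed brown cotton plant. The deposited values are means over the libraries of a stage, so both groups mixed wild-type and RNAi lines and the colors could not be compared. According to the methods ovules and fibers were taken on both days, while the labels say fiber, so a difference between 12 and 0 DPA may include a difference in tissue. In such bulk RNA, fewer cells of a type and less RNA per cell cannot be told apart.

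Chalcone synthase joins a coumaroyl-CoA from the phenylpropanoid pathway with malonyl-CoA units to form naringenin chalcone, the first flavonoid. Chalcone isomerase closes the ring of this chalcone, and the later enzymes lead to flavonols, anthocyanins and proanthocyanidins, which are known as pigments or pigment precursors in plants and in brown cotton fiber. In many plants the enzyme is encoded by several similar genes, of which a few supply most of the transcripts of a tissue.

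The primers that the study designed for these mRNAs are shown because they tie each name to a stretch of its record, and because a pair of them shows how close copies of the family can be. They read 5′ to 3′, and a capital marks the base that separates the forward primers of CHS1 and CHS7. For the CHS1 match the study had no primer.
CHS2 forward: ggtcagcccaaatccaaga
CHS2 reverse: taccaccagcgaaacaacc
CHS3 forward: ataacaaggacgctcgggt
CHS3 reverse: tgcttgacccaccagagaa
CHS4 forward: atccttgtaactgaagtgccc
CHS4 reverse: gggattgttctctgccaaa
CHS6 forward: agtgacggtgccattgatg
CHS6 reverse: tcccaatggctgaaatgc
CHS1 forward: aggtgccaaagctaggcaaG
CHS7 forward: aggtgccaaagctaggcaaA
The forward primers of CHS1 and CHS7 differed at 1 of 20 bases, G20A counted from the 5′ end, with the base of CHS1 first. Reads that align equally well to several genes are set aside by the counting tool, and how many reads the chalcone synthase genes lost in this way was not tested.

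Normalized counts, which are reads divided by the size factor of their library, summed over all genes to 4870048 at 12 DPA, against 3044867 at 0 DPA. Alignments that were not unique and so entered no gene amounted to 1.88 times the gene sum at 12 DPA and 14.2 times at 0 DPA. Their part in the differences below was not tested. Size factors recovered from the deposited means lay between 0.770 and 1.30 at 12 DPA, against 0.487 and 1.67 at 0 DPA. If the libraries of a stage have equal normalized totals, a 12 DPA library held 3748760 to 6309377 reads in genes and a 0 DPA library held 1482909 to 5075787.

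All 5 chalcone synthase genes had a higher mean at 12 DPA than at 0 DPA, and in each the difference was at least 2-fold. Over all 33463 genes with reads, 24.3% were at least 2-fold higher at 12 DPA, and 21.8% of the 21693 genes whose mean reached 10 were. The difference was at least 4-fold in 4 of 5 members, beside 13.1% of the genes with reads and 9.2% of those with a mean of at least 10. Since the gene IDs came from lists of genes that differed between the stages, nothing is read from these counts. No test between the stages was possible for CHS2, the CHS1 match, CHS3 and CHS6, because the spread between libraries could not be recovered at both stages. The errors of ratios and shares below are therefore counting errors alone, and they are the largest that the recovered size factors allow.

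CHS2 and the CHS1 match were the abundant members. CHS2 averaged 7212 normalized counts at 12 DPA, against 1283 at 0 DPA, the authors' means. The log2 ratio of 12 over 0 DPA was 2.49 ± 0.02 (counting SE), or 5.62-fold. Ranked by normalized count, CHS2 was gene number 47 of the table at 12 DPA and number 147 at 0 DPA. The CHS1 match averaged 5318 normalized counts at 12 DPA, against 1134 at 0 DPA, a log2 ratio of 2.23 ± 0.03 (counting SE), or 4.69-fold. It was gene number 71 at 12 DPA and number 187 at 0 DPA. Depth was no limit for these genes: the 12 DPA mean of CHS2 rested on 33307 to 56058 reads and its 0 DPA mean on 3748 to 12831, depending on how the reads fell over the libraries.

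CHS3 was the middle member, with 429 normalized counts at 12 DPA, against 63.4 at 0 DPA. Its log2 ratio was 2.76 ± 0.11 (counting SE), or 6.76-fold, and it was gene number 2114 at 12 DPA against number 12034 at 0 DPA. CHS6 and CHS4 were the rare members. CHS6 averaged 136 normalized counts at 12 DPA, against 7.41 at 0 DPA, a log2 ratio of 4.20 ± 0.32 (counting SE), or 18.4-fold. CHS4 averaged 23.4 normalized counts at 12 DPA, against 7.43 at 0 DPA, a log2 ratio of 1.65 ± 0.34 (counting SE), or 3.15-fold. CHS6 and CHS4 thus stood side by side at 0 DPA, while at 12 DPA CHS6 was 5.83 times CHS4.

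**Figure D1:**
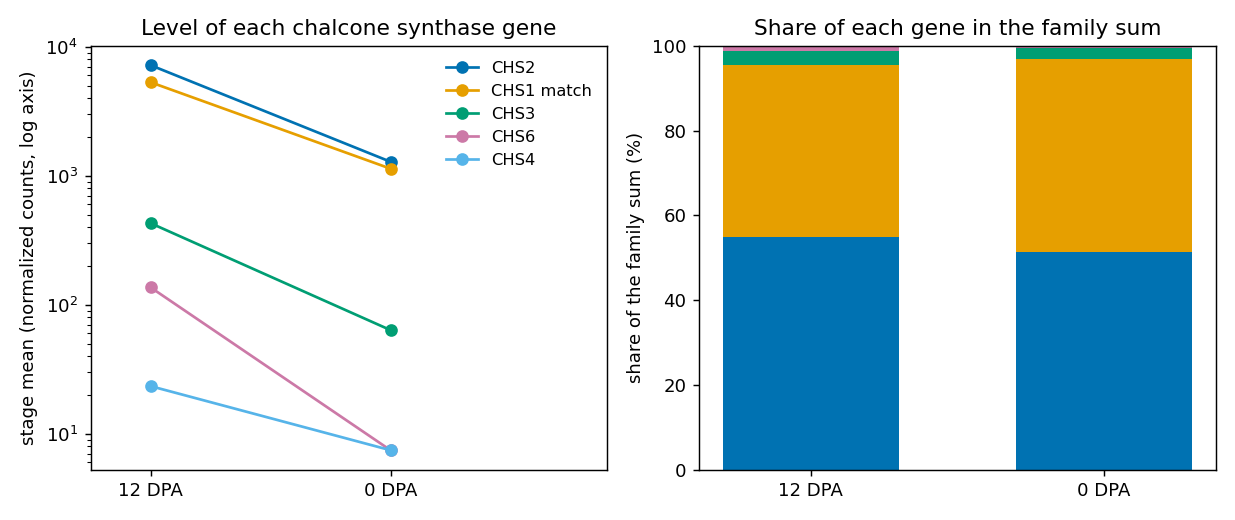
Left, the stage mean of each chalcone synthase gene in normalized counts on a log axis, at 12 DPA and at 0 DPA, with a line joining the 2 means of a gene. Right, the share of each gene in the family sum at the same stages, in percent and in the colors of the left panel. CHS2 and the CHS1 match lie highest at both stages, with 7212 and 5318 normalized counts at 12 DPA, and fill most of each bar, and CHS6 and CHS4 meet at 0 DPA.

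Together the 5 genes summed to 13118 normalized counts at 12 DPA, against 2495 at 0 DPA, a log2 ratio of 2.39 ± 0.02 (counting SE), or 5.26-fold. This was 0.269% of the normalized counts of all genes at 12 DPA and 0.0819% at 0 DPA. CHS2 made up 55.8% of the increase and the CHS1 match 39.4%.

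CHS2 held 55.0% of the family sum at 12 DPA (95% counting interval 54.6 to 55.4) and 51.4% at 0 DPA (50.3 to 52.6). The CHS1 match held 40.5% at 12 DPA (40.1 to 40.9) and 45.5% at 0 DPA (44.3 to 46.6). Both shifts were larger than the counting error, and whether they were larger than the spread between libraries was not tested. Together these genes held 95.5% of the family sum at 12 DPA and 96.9% at 0 DPA, so the same pair led the members analysed at both stages. CHS3 held 3.27% at 12 DPA (3.13 to 3.41) and 2.54% at 0 DPA (2.18 to 2.90). The share of CHS6 was 1.04% at 12 DPA (0.958 to 1.12) and 0.297% at 0 DPA (0.172 to 0.422). CHS4, like the CHS1 match, had a smaller share at 12 DPA, with 0.178% (0.145 to 0.212) against 0.298% at 0 DPA (0.173 to 0.423), and these intervals overlap. Shares are of reads not divided by gene length, so they describe the makeup of the reads and not of the transcripts.

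The 5 log2 ratios ran from 1.65 in CHS4 to 4.20 in CHS6, with a median of 2.49 and an SD of 0.95. The SD was 0.26 over CHS3, CHS2 and the CHS1 match, the members with a mean of at least 10 at both stages, so the spread rests on CHS6 and CHS4, which had 47 and 58 reads at 0 DPA. The ratio of CHS6 was thus 5.85 times that of CHS4, a difference of 2.55 on the log2 scale (95% counting interval 1.64 to 3.46). Against CHS3, the next highest, the log2 ratio of CHS6 was larger by 1.44, with a lower bound of 0.79 on the same interval. CHS3, CHS2 and the CHS1 match lay close together: CHS3 exceeded CHS2 by 0.27 (0.04 to 0.49) and CHS2 exceeded the CHS1 match by 0.26 (0.19 to 0.33) on the log2 scale. The CHS1 match exceeded CHS4 by 0.58, with an interval of -0.09 to 1.24 that includes 0. Among the 21672 genes whose mean reached 10 and that had reads at both stages, the median log2 ratio was -0.03 and the quartiles were -0.81 and 0.84. The members lay between percentile 87.8 (CHS4) and percentile 97.7 (CHS6) of these genes, which is a description only: their IDs came from lists of genes that differed between the stages, and CHS6 and CHS4 reached a mean of 10 at 12 DPA alone.

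Scaling the stage means to equal gene sums, with the size factors kept within each stage, moved every log2 ratio by -0.68. All 5 members kept a higher mean at 12 DPA, and CHS4 was just short of 2-fold, at 1.97-fold. After this scaling 4 of 5 members were at least 2-fold higher, beside 15.8% of all genes with reads and 12.1% of those with a mean of at least 10.

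**Figure D2:**
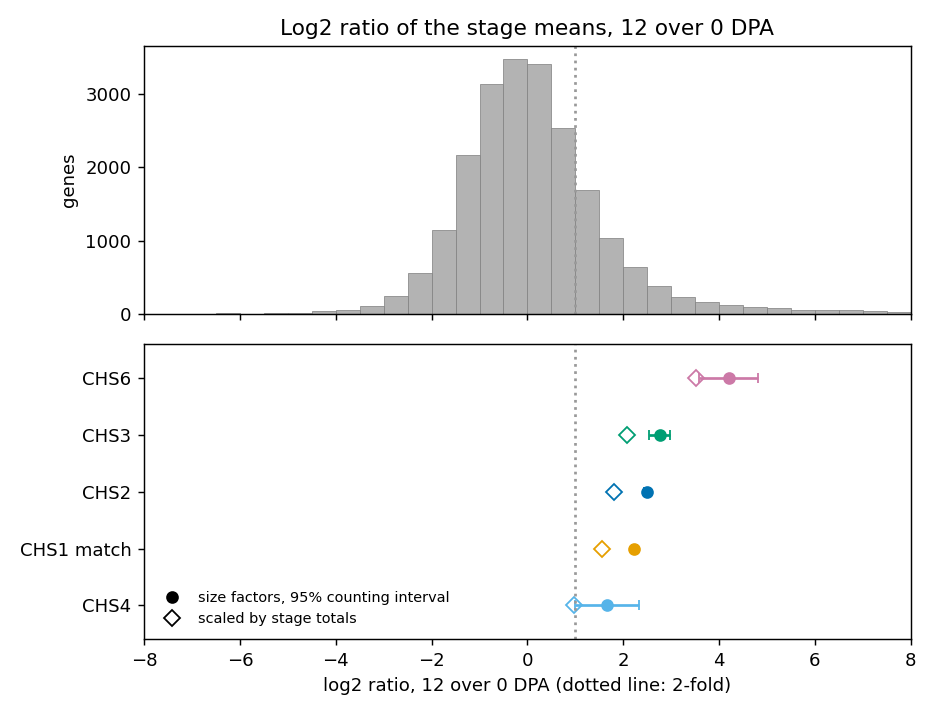
Top, the number of genes by log2 ratio of the stage means (12 over 0 DPA, bins of 0.5, axis cut at -8 and 8) for 21672 genes with a mean of at least 10. Bottom, the log2 ratio of each chalcone synthase gene on the same axis, as filled circles with 95% counting intervals under the authors' size factors and as open diamonds after scaling by stage totals, with a dotted line at 2-fold. CHS6 lies farthest right at 4.20, and the diamond of CHS4 lies at 0.98, left of the dotted line.

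For means below 10 the deposited digits were fine enough to give back the whole reads of each of the 6 libraries of a stage. At 0 DPA this covered CHS6 and CHS4. The libraries are called A to F here in falling order of size factor, since the deposited values do not tie them to a line or a color. CHS6 had 9, 5, 3, 12, 15 and 3 reads in the 0 DPA libraries A to F, which is 5.40, 3.51, 2.57, 11.5, 15.3 and 6.16 normalized counts. CHS4 had 25, 11, 7, 8, 6 and 1 reads in the same libraries, which is 15.0, 7.71, 5.99, 7.67, 6.13 and 2.05 normalized counts. Both genes had reads in all 6 libraries, and neither mean rested on a single library.

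The means of CHS6 and CHS4 at 0 DPA were alike, but their highest libraries differed. CHS6 was highest in libraries D and E and CHS4 in library A. CHS4 took 73.5% of the 34 reads of both genes in library A (95% exact binomial interval 55.6 to 87.1), 68.8% of 16 reads in B (41.3 to 89.0) and 70.0% of 10 reads in C (34.8 to 93.3). It took 40.0% of 20 reads in D (19.1 to 63.9), 28.6% of 21 reads in E (11.3 to 52.2) and 25.0% of 4 reads in F (0.631 to 80.6). CHS4 had the larger number of reads in the 3 libraries with the largest size factors and CHS6 in the other 3. Library A alone had an interval that left out an equal share, so in B to F neither gene led beyond counting error. Over the 6 libraries the log2 difference of CHS6 minus CHS4, with 1 added to each value, averaged -0.05 ± 1.17 (SD, n = 6). The pair was set side by side because its means coincide, so the mean difference is no test, and the SD describes how far the libraries departed from it.

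**Figure D3:**
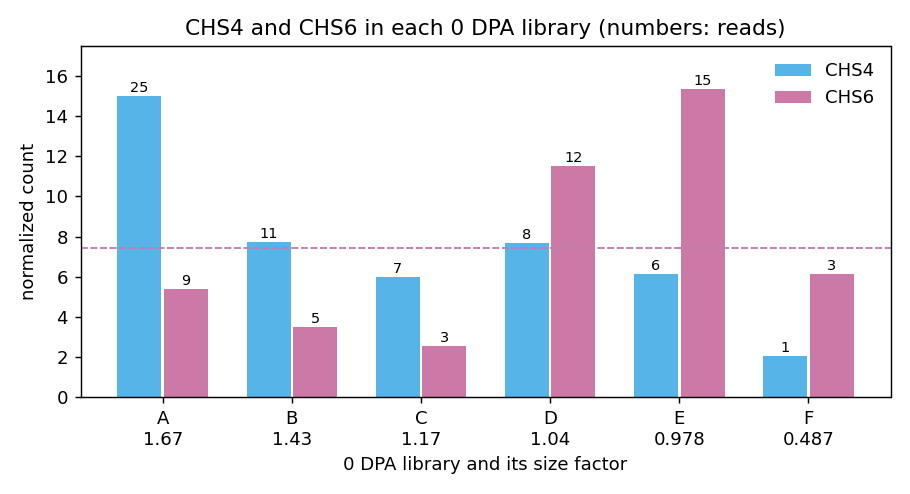
Normalized count of CHS4 and CHS6 in each of the 6 libraries at 0 DPA, with the number of reads above each bar and the size factor of the library under its letter. A dotted line marks the mean of CHS4 and a dashed line that of CHS6, and these lines coincide at 7.4. CHS4 is the taller bar in libraries A to C and CHS6 in libraries D to F.

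The spread of CHS6 over the 0 DPA libraries was 7.41 ± 4.98 normalized counts (SD, n = 6) and that of CHS4 was 7.43 ± 4.24 (SD, n = 6). The coefficients of variation were 0.672 for CHS6 and 0.571 for CHS4, near the median of 0.585 over the 2261 genes with a recovered 0 DPA mean between 5 and 10. The 12 DPA mean of CHS6 was 8.89 times its highest 0 DPA library. For CHS4 the 12 DPA mean was 1.56 times its highest 0 DPA library. Both values set a mean against a single library, so they do not show that the libraries of the stages lay apart. The spread of CHS6 at 12 DPA was not recovered.

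At 12 DPA the mean of CHS4 was too large for a single answer, and 21 combinations of reads over the 6 libraries gave it. They held 126 to 153 reads in all. In 20 of the 21 combinations at least 1 library at 12 DPA lay at or under the highest 0 DPA library, and in 1 combination the stages did not overlap. An exact two-sided permutation test of 6 against 6 libraries on log2(value + 1) gave p from 0.00216, the smallest possible, to 0.693 over the combinations, and p was under 0.05 in 6 of them. The higher mean of CHS4 at 12 DPA was therefore not shown to exceed the spread between libraries, and neither was it shown to lie within it. The ID of CHS4 came from lists of genes that differed between the stages. No p-value of this test is therefore independent support for a difference.

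By convention the gene IDs of the table follow the order of gene models along the Gossypium raimondii chromosomes, so the ID before and the ID after each member were compared with it. Of these 10 neighbors 2 were at least 2-fold higher at 12 DPA, or 20.0% beside the 24.3% of all genes, and 1 was at least 2-fold lower, beside 26.3% of all genes. The 2 neighbors are singled out here after their values were seen, and neither has a protein name in the tables at hand. Whether either is a chalcone synthase could not be looked up, and neither is in the family sum. Gorai.011G161200, the ID before the CHS1 match, averaged 3778 normalized counts at 12 DPA, against 789 at 0 DPA. Its log2 ratio of 2.26 ± 0.03 (counting SE) stood next to 2.23 of the CHS1 match, and its mean was 0.710 times that of the CHS1 match at 12 DPA and 0.696 times at 0 DPA. Gorai.009G251000, the ID after CHS4, averaged 51.0 normalized counts at 12 DPA, against 2.19 at 0 DPA, a log2 ratio of 4.54 ± 0.58 (counting SE). The other 8 neighbors had log2 ratios from -1.82 to 0.90, all below the ratio of the member beside them. The IDs of the members, unlike those of the neighbors, came from lists of genes that differed between the stages. Lower neighbors were therefore likely from the start, and nothing is read from this.

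**Figure D4:**
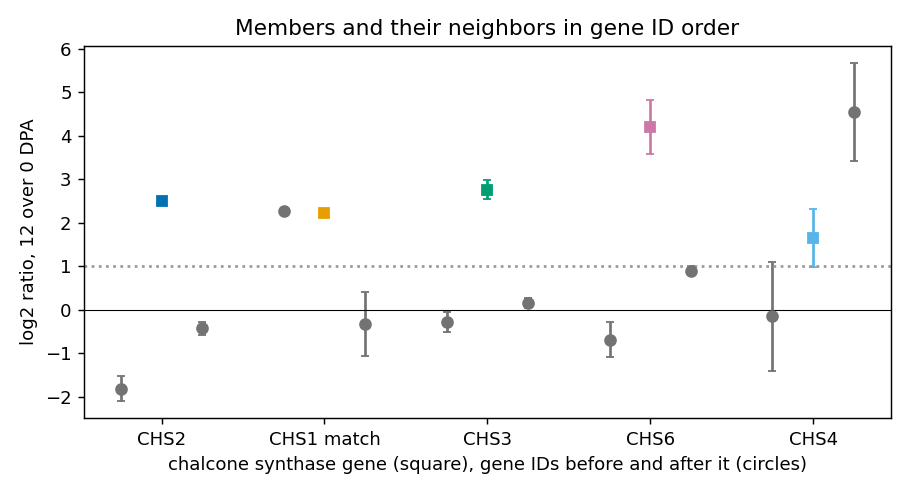
Log2 ratio of 12 over 0 DPA of each chalcone synthase gene (colored squares) and of the gene IDs just before and just after it (grey circles), with 95% counting intervals as bars, a solid line at 0 and a dotted line at 2-fold. The circle left of the CHS1 match lies at 2.26, level with its square at 2.23, and the circle right of CHS4 lies at 4.54, above its square at 1.65.

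With 1 mean per stage, likeness of pattern could be measured only as the distance between pairs of log2 means. Among 453 genes with a protein name and reads at both stages, the nearest to CHS2 was the gene of an S-adenosyl-homocysteine hydrolase (Gorai.006G223900), with 6736 normalized counts at 12 DPA, against 931 at 0 DPA, at a distance of 0.47. Nearest to the CHS1 match was an annexin gene, Anx1 (Gorai.007G239000), with 4831 normalized counts at 12 DPA, against 1278 at 0 DPA, at a distance of 0.22. CHS3 lay nearest to the endo-1,4-beta-glucanase gene Cel1 (Gorai.003G080800), which averaged 464 normalized counts at 12 DPA, against 58.7 at 0 DPA, at a distance of 0.16. CHS6 lay nearest to the actin gene ACT12 (Gorai.013G022400), with 99.6 normalized counts at 12 DPA, against 7.90 at 0 DPA, at a distance of 0.46. CHS4 lay nearest to a vacuolar invertase gene (Gorai.003G114000), with 25.4 normalized counts at 12 DPA, against 8.69 at 0 DPA, at a distance of 0.26. None of these genes belongs to the flavonoid pathway, and 2 to 36 other genes with a mean of at least 10 lay nearer to the member in question.

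The other genes of the phenylpropanoid pathway that had a gene ID were 7, and 6 of them were at least 2-fold higher at 12 DPA, beside the 24.3% of all genes. None was at least 2-fold lower, beside 26.3% of all genes. Their IDs come from the same lists as those of the members, so this count too is no evidence of direction. The 6 genes with reads at both stages had a median log2 ratio of 2.22, against 2.49 over the 5 chalcone synthase genes. PAL, which encodes the phenylalanine ammonia-lyase that feeds the pathway upstream of chalcone synthase, had the lowest log2 ratio, 0.96 ± 0.13 (counting SE), with 110 normalized counts at 12 DPA, against 56.6 at 0 DPA. CHI-1, the chalcone isomerase that takes up the product of chalcone synthase, averaged 2423 normalized counts at 12 DPA, against 738 at 0 DPA, a log2 ratio of 1.72 ± 0.03 (counting SE). CCR1, a cinnamoyl-CoA reductase of the lignin branch that draws on the same precursors, averaged 1356 normalized counts at 12 DPA, against 107 at 0 DPA, a log2 ratio of 3.66 ± 0.08 (counting SE). Among the later flavonoid enzymes, the hydroxylase gene F3'5'H averaged 8447 normalized counts at 12 DPA, against 2616 at 0 DPA (log2 ratio 1.69), and the dihydroflavonol reductase gene DFR averaged 11689 at 12 DPA, against 1775 at 0 DPA (log2 ratio 2.72). The ratio of DFR thus stood near those of CHS2 and CHS3, and the ratios of CHI-1 and F3'5'H near that of CHS4. Reads of the RNAi hairpin against CHI-1 could be counted with that gene. Both stage means of CHI-1 also include the RNAi lines, and the paper reports lower GhCHI-1 expression in some of these plants and days. How far either changed the level and ratio of CHI-1 was not tested. The family sum of chalcone synthase stood above CHI-1 at both stages, as sums of reads that are not divided by length.

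The same recovery of reads reached the 3GT genes, the flavonoid 3-O-glucosyltransferases at the far end of the pathway. Gorai.012G009500, with 67.4 normalized counts at 12 DPA, against 3.29 at 0 DPA, had 9, 7, 3, 5, 2 and 0 reads in the 0 DPA libraries A to F, in which CHS4 had 25, 11, 7, 8, 6 and 1. Both were highest in library A and lowest in library F by normalized count, while CHS6 was highest in library E. Gorai.012G009500 had only 26 reads at 0 DPA, with 5.40, 4.91 and 4.80 normalized counts in libraries A, B and D. Its order of libraries was not tested against counting error, and no likeness is read from it. Gorai.012G009400 had no read at 0 DPA and 10, 2, 1, 2, 7 and 7 reads in the 12 DPA libraries A to F. Its 12 DPA mean of 5.04 was 4.91 times a bound set for 0 DPA. This value leaves out the error of the 12 DPA mean, which rests on 29 reads. The bound sets its 0 DPA mean to 1.03, which stands for 3 reads, all of them in library F, the library with the smallest size factor.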

How the data were processed

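RNA was sequenced from 6 lines at 12 and 0 DPA, and samples were grouped by the day in the submitters' labels. Per the methods and processing notes, the authors trimmed reads with Trimmomatic 0.32, aligned them with TopHat to the Gossypium raimondii genome (JGI 221 v2.1) using a Bowtie 2.2.4 index, took gene counts from HTSeq 0.6.0 and used DESeq 1.18.0 for the comparison of stages. Whether strand entered the counts is not given, so antisense genes could share reads. The deposited values used here are a signal made by the authors: the mean of counts over size factors at each stage. The column names say RPKM, but low values are sums of the same 6 steps for every gene, which values divided by length are not. The other 4 columns hold the authors' folds and p-values and were not used.

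A step is the inverse of a size factor over 6 libraries. Steps were the smallest means shared by many genes, refined by least squares. All reads behind a mean below 10 were then enumerated to a tolerance of 7e-10. Of 10972 such means at 12 DPA, 100% had a single combination of reads, and of 10920 at 0 DPA 99.95% did. In a test on simulated data of 37500 genes, 10293 of 10293 low means at 12 DPA and 10238 of 10239 at 0 DPA were recovered. Counting errors cover read sampling alone. Intervals are at 95%.

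With stage means no test across all genes could be run, so a call is a fold of at least 2. Named genes were the members, the 7 pathway IDs and the nearest gene with a protein name. The part of the rule on correlation with CHS2 over libraries could not be applied. The members and lists were chosen with earlier results of these data known. Entries of the counting tool that name no gene (not unique, no feature and ambiguous alignments) were 48.2%, 26.0% and 0.184% of the summed normalized entries at 12 DPA and 87.0%, 6.78% and 0.0368% at 0 DPA, and stayed out of gene sums. The names of 4 of the 5 members were found in the RefSeq table of Gossypium_hirsutum_v2.1, but 0 gene IDs, so no coordinates are given. Python 3.11.15, numpy 2.4.6, pandas 2.3.3, scipy 1.17.1 and matplotlib 3.10.9 were used.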

Additional observations from a re-analysis of the deposited data

How the results depend on the processing

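Of 42 alternative values 29 stayed within counting error or within 1.5 times of a count, and 13 moved beyond that. No log2 ratio changed sign, while shares, SDs and counts could not change sign. Scaling by stage totals moved the log2 ratios of the family sum and of every member beyond counting error. It gave 1.72 for the family sum, 1.81 for CHS2, 1.55 for the CHS1 match, 2.08 for CHS3, 3.52 for CHS6 and 0.98 for CHS4. Scaling by the median ratio, a log2 shift of only 0.03, kept 6 of 6 ratios within counting error. The family sum gave 2.28 without CHS2 and 2.52 without the CHS1 match. Without the CHS1 match CHS2 held 92.5% of the family sum at 12 DPA and 94.3% at 0 DPA. The SD of the log2 ratios was 0.26 over the members with a mean of at least 10 at both stages, which leaves out CHS6 and CHS4. Genes at least 2-fold higher at 12 DPA numbered 8144, and 4731 with a mean of at least 10 or 5277 after scaling by stage totals. Leaving out each 0 DPA library in turn, an alternative added after the data had been seen, gave 4.02 to 4.55 for CHS6 and 1.46 to 1.98 for CHS4. Leaving out libraries could not be done for the other members, nor could a count test across all genes or the mean of log values over libraries, because their reads per library were not recovered. No paired analysis was possible because the recovered libraries carry no line or number. Among the chalcone synthase genes depth limits CHS6 and CHS4 most, with 47 and 58 reads at 0 DPA.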
